A study of Mus musculus with 8 samples.

Results

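Oligodendrocytes of the adult mouse hippocampus are described here from 2446 nuclei, which are all nuclei that the authors' annotation named oligodendrocytes among 29425 nuclei in 4 snRNAseq samples. The study compared *Wls* fl/-;*Gfap-Cre* mice, called mutant, with *Wls* fl/+;*Gfap-Cre* mice, called control, and its stated subject is a hippocampus that develops with very few dentate granule cells (DGCs). Each sample held both hippocampi of 1 male mouse of 12 weeks, with 2 mice per genotype for snRNAseq and 2 per genotype for bulk RNAseq. Mice of both genotypes carried the *Gfap-Cre* transgene, Tg(Gfap-Cre)25Mes, whose human *GFAP* promoter drives Cre in progenitors of the medial and dorsal cortex during development. Control mice also carried 1 floxed *Wls* copy, so Cre-expressing control lineages keep 1 functional copy, and mutant mice carried a null copy beside the floxed one. *Wls* codes for Wntless, the carrier that takes Wnt proteins to the cell surface, and the corpus callosum, a large myelinated tract above the hippocampus, is missing in the mutant. Of the 2446 oligodendrocyte nuclei, 73 came from mutant replicate 1, 1112 from mutant replicate 2, 232 from control replicate 1 and 1029 from control replicate 2.

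Oligodendrocytes wrap axons in myelin, a stack of membrane held together by proteins such as MBP and rich in cholesterol and galactolipids. They arise from oligodendrocyte precursor cells (OPCs), pass through a newly formed stage, and in the mature brain take up several transcriptional states that carry the same myelin genes but differ in others, among them *Klk6*, *Ptgds* and *Il33*. Wnt signals act on this lineage through beta-catenin and the transcription factor TCF7L2, which is switched on at the onset of differentiation.

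The oligodendrocyte sums, which add the UMIs (counted RNA molecules) of all oligodendrocyte nuclei of a mouse, held 139436, 2233150, 445965 and 2548567 UMIs in mutant replicates 1 and 2 and control replicates 1 and 2. Levels are given as CPM (counts scaled to a common total of UMIs) of a sum, scaled by TMM, and 1 UMI was worth 7.39, 0.460, 2.26 and 0.394 CPM in these sums, so low genes were coarsely measured in mutant replicate 1. Replicate 1 of both genotypes was the shallower library, with medians over all nuclei of 4128 and 5167 UMIs against 6771.5 and 7544.5 in replicate 2. Libraries shared 8 to 21 cell barcodes between pairs over all nuclei and 0 or 1 among oligodendrocytes. The 4 oligodendrocyte sums held *Ddx3y* at 58.2 to 100.9 CPM and at most 1 UMI of *Xist*, as the male labels state. In bulk RNAseq, in contrast, both libraries labelled replicate 2 went against the male label, with 18301.3 and 34766.3 expected counts of *Xist* and 28.0 and 22.9 of *Ddx3y*, so each bulk group holds 1 library of each kind. The labels do not state that equal replicate numbers of the genotypes are paired. The sample titles do number the mutant and control libraries of a replicate consecutively in both assays. Depth in nuclei and *Xist* in bulk also followed the replicate number.

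The label was borne out by the markers. In the sums *Mbp*, myelin basic protein, stood at 4747, 4873, 3788 and 4139 CPM in mutant replicates 1 and 2 and control replicates 1 and 2. *Mog*, a glycoprotein of the outer myelin face, stood at 1738, 1383, 1841 and 1603 CPM, and *Mag*, an adhesion protein that faces the axon, at 1442, 1281, 1285 and 1644 CPM. Every oligodendrocyte nucleus held a UMI of at least 1 of the 3 markers, and 83.6%, 78.2%, 80.6% and 92.3% of the nuclei held all 3. In each of the 4 samples all 3 markers were above every other cell type with at least 20 nuclei, where *Mog* reached at most 108 CPM. Ranked by how many times their CPM in control oligodendrocytes exceeded that of the next cell type, the leading 10 genes, among 3642 genes of at least 50 CPM, were *Mag* (38.7 times), the noncoding RNAs *Gm36855* (38.2), *Gm48370* (37.0), *A330049N07Rik* (31.0) and *Gm48508* (28.5), and *Ankub1* (35.8), *Serpinb1a* (33.2), *Sec14l5* (29.2), *Mbp* (28.4) and *Mobp* (28.2), a further myelin protein. These ratios describe nuclei that the annotation grouped by their transcripts, so no test was made of them. In total 61 genes passed a ratio of 10.

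**Figure D1:**
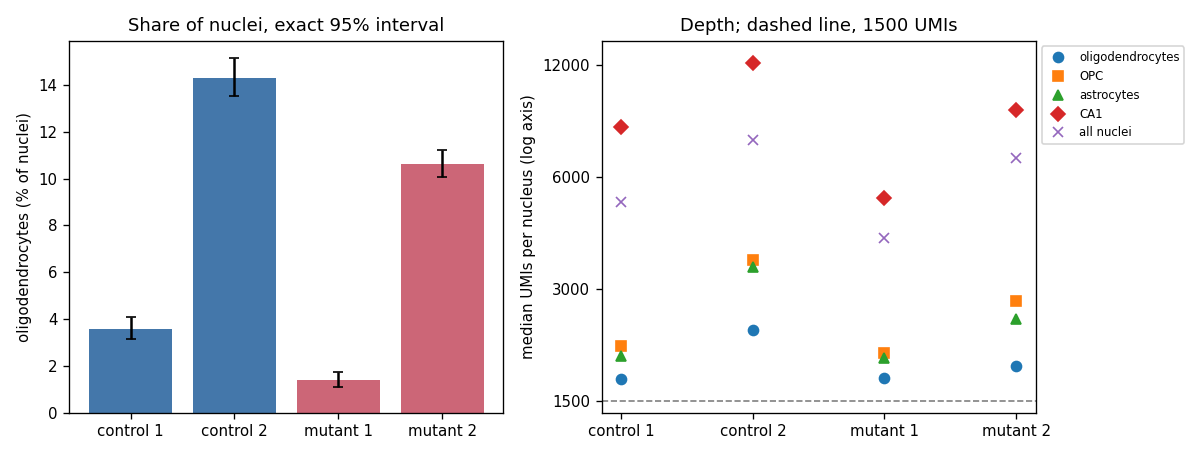
Left, oligodendrocytes as a percentage of all nuclei in each sample, with exact 95% binomial intervals. Right, median UMIs per nucleus on a log axis for oligodendrocytes, OPCs, astrocytes, CA1 neurons and all nuclei, with the 1500 UMI minimum dashed. Oligodendrocytes lay nearest to the minimum of the types shown in every sample, and both replicates 1 had the lower share and the lower depth.

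Oligodendrocytes made up 1.38% of nuclei in mutant replicate 1 (exact Clopper-Pearson 95% interval 1.08 to 1.73), 10.6% in mutant replicate 2 (10.1 to 11.2), 3.59% in control replicate 1 (3.15 to 4.07) and 14.3% in control replicate 2 (13.5 to 15.1). The 2 replicates of a genotype differed far more than the genotypes did. The fitted log2 difference of mutant from control was -0.57 (SE 1.20, n = 2 per genotype, FDR 0.809 over cell types, by the quasi-likelihood test of edgeR with the adjustment of Benjamini and Hochberg), and the direction turned to 0.25 without mutant replicate 1 and to 0.74 without control replicate 2. Against nuclei other than DGCs, which were 1.70% and 4.43% of mutant and 36.1% and 27.9% of control nuclei, the log2 difference was -1.02 (SE 1.17). Oligodendrocytes per OPC numbered 0.820 and 2.51 in the mutants and 1.06 and 4.40 in the controls, again with the groups overlapping. Within each replicate number the mutant was below the control in share and per OPC, though the labels do not state that these numbers are paired.

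Oligodendrocyte nuclei lay near the lowest depth kept. The lowest total among oligodendrocyte nuclei was 1500 to 1506 UMIs in the 4 samples, and their medians were 1732, 1867.5, 1727 and 2339 UMIs. Between 24.5% and 77.6% of them held under 2000 UMIs. CA1 pyramidal neurons, in contrast, had medians of 5270 to 12164 UMIs. Among nuclei of at least 2500 UMIs, a limit chosen after seeing the data, the shares were 0.167%, 1.52%, 0.514% and 6.36%. The part of this minimum in the shares was not tested. Intervals and shares cover counting error only.

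*Wls* itself was nearly absent from mutant oligodendrocytes. Its level was 0 and 5.06 CPM in mutant replicates 1 and 2 and 76.9 and 89.0 CPM in control replicates 1 and 2, on 0, 11, 34 and 226 UMIs, and the groups were apart (log2 FC -4.14, SE 0.41, n = 2 per genotype, FDR 6.87e-05). After every nucleus was thinned to 1500 UMIs, 0 of 73 nuclei and 0.629% of nuclei in the mutants held a UMI of *Wls*, against 10.3% and 12.2% in the controls. A count of 0 in 73 nuclei allows a share of up to 4.11% by the limit of 3 counts and of up to 4.93% by the exact 95% interval. Hippocampal neurons (CA1, CA3 and DGCs), thinned alike, had 0.45% to 1.35%. The counts are totals per gene with unspliced RNA included, so they give the level of the transcript and not the state of the recombined exon. *Wls* (chr3:159839672-159938664, mm10) also fell in OPCs (log2 FC -3.16, FDR 0.00634) and in astrocytes (-4.28, FDR 0.000227). The effect in oligodendrocytes was not distinguished from either by the interaction term in edgeR, with a log2 difference of -1.02 (SE 0.73, FDR 1.0) against OPCs and of 0.11 (SE 0.63, FDR 1.0) against astrocytes. In control mice 4 of 17 and 2 of 16 other cell types had more *Wls* than oligodendrocytes, the highest being the cluster named inhibtory neurons 14 in the annotation, with 499 and 471 CPM before TMM scaling.

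Beyond *Wls*, 8 genes were lower and none was higher in mutant oligodendrocytes at FC above 2 and FDR below 0.05, among 10086 genes tested. The 9 genes that fell are 0.0892% of those tested, and 0% rose. At an unadjusted p under 0.05 and the same FC, 117 genes (1.16%) were higher and 131 (1.3%) lower. DESeq2 called 0 higher and 6 lower, of which 5 are among the 9. With no filter on low counts 13 genes were higher and 34 lower, and with the replicate number as a block 21 and 66. More genes were called in each direction when any 1 library was left out. Such a fit leaves 1 mouse in a group. All 9 genes were lower in each of these fits, but *Ahsa1*, *Hspa1a* and *Hspa1b* lost the call without mutant replicate 2, and *Hspa1a* and *Hspa1b* without control replicate 2. Without mutant replicate 2, which leaves mutant replicate 1 alone in its group, the log2 FC went to -9.46 for *Wls*, -8.40 for *Hspa1a*, -3.16 for *Stip1* and -3.06 for *Ubb*, the first 2 of which are at 0 in that library. The 8 genes were *Hspa1a* and *Hspa1b* (the inducible forms of the chaperone HSP70), *Stip1* (the adaptor that links HSP70 to HSP90), *Ahsa1* (an activator of the HSP90 ATPase), *Ubb* (polyubiquitin), *P4ha1* (a subunit of the prolyl hydroxylase that modifies collagen), *Cd9* (a tetraspanin of the cell surface that is abundant in this lineage) and *Traf5* (an adaptor of TNF family receptors). No test was made of what they share. The rule that the mutant samples lie outside the control range was met by all 9, as it was by 19.9% of all genes tested in this direction and by 16.7% in the other.

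**Figure D2:**
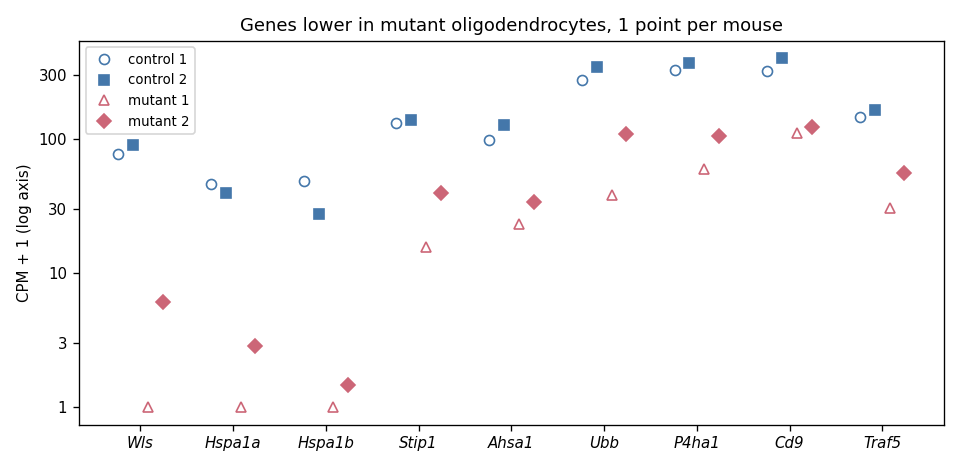
Level of each of the 9 genes in the oligodendrocyte sum of each mouse, as CPM + 1 on a log axis, with open symbols for replicate 1 and filled symbols for replicate 2. Both mutant mice lay below both control mice for each gene, and *Wls*, *Hspa1a* and *Hspa1b* were at 0 in mutant replicate 1.

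The HSP70 pair fell along with *Wls*. *Hspa1a* (chr17:34969190-34972156, mm10, minus strand) stood at 0 and 1.84 CPM in mutant replicates 1 and 2 and at 45.2 and 38.6 CPM in control replicates 1 and 2, on 0, 4, 20 and 98 UMIs (log2 FC -4.49, SE 0.57, FDR 0.00133). The ratio of control to mutant was 23.4 for *Hspa1a* (95% counting interval 8.89 to 87.2) and 18.7 for *Wls* (10.3 to 38.0), so the intervals overlap. *Hspa1b* (chr17:34956436-34959238, minus strand) stood at 0 and 0.460 CPM against 47.5 and 26.4 CPM, and on 1 UMI in the mutants against 88 in the controls its ratio was 69.7 with a 95% counting interval of 12.2 to 2780. In OPCs, astrocytes and microglia each gene held at most 2 UMIs in any sample. Neuronal types in which the pair could be tested also had negative values. *Hspa1a* had a log2 FC of -0.83 in CA1 neurons and -2.35 in the cluster named inhibtory neurons 5. *Hspa1b* had -1.08 in CA1 neurons, -0.79 in CA3 neurons and -1.45 in DGCs. Over all other cell types of a control sample with at least 20 nuclei, the median level of *Hspa1a* was 1.52 and 2.02 CPM before TMM scaling. Its highest level elsewhere was 26.8 CPM in the cluster named excitatory neurons 19 of control replicate 1 and 45.9 CPM in inhibtory neurons 14 of control replicate 2, the latter above the 38.5 CPM of oligodendrocytes. With so few UMIs in OPCs and astrocytes, the difference between cell types in the effect on *Hspa1a* had an SE of 2.56 and did not pass (FDR 0.425 against OPCs, 1.0 against astrocytes, interaction term in edgeR).

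The HSP70 pair was spread thinly over control nuclei. A UMI of either gene was in 12.9% of the 232 nuclei of control replicate 1 (exact 95% interval 8.9 to 17.9) and in 12.6% of the 1029 nuclei of control replicate 2 (10.7 to 14.8), with at most 5 UMIs of *Hspa1a* in a nucleus. The same shares were 0 of 73 nuclei and 0.36% of 1112 nuclei in the mutants. Nuclei with and without such a UMI had similar depth, with medians of 1760 and 1720 UMIs in control replicate 1 and 2440 and 2330 in control replicate 2. After thinning to 1500 UMIs, neurons held a UMI of *Hspa1a* in 0.0473% to 0.285% of nuclei, against 6.03% and 4.66% of control oligodendrocytes.

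The 2 genes are near-identical neighbours, and reads that match both may be given to either or to neither, so their separate levels are uncertain. Their promoters are shown because the pair moved together. Both windows are from RefSeq (GRCm38.p6), run 5' to 3' on the minus strand from 250 bases before the start to 50 bases after it, and lie at chr17:34972107-34972406 for *Hspa1a* and chr17:34959189-34959488 for *Hspa1b*. Capitals mark GAANNTTC, a head-to-head pair of the GAA units to which heat shock factors bind. The reverse arrangement TTCNNGAA was searched too, and each motif reads the same on both strands.
Hspa1a promoter: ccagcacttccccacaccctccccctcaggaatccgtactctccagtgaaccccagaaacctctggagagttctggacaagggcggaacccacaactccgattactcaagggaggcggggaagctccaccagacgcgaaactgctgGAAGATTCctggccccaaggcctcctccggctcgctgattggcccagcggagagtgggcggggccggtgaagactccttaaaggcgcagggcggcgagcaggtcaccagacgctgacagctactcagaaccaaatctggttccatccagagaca
Hspa1b promoter: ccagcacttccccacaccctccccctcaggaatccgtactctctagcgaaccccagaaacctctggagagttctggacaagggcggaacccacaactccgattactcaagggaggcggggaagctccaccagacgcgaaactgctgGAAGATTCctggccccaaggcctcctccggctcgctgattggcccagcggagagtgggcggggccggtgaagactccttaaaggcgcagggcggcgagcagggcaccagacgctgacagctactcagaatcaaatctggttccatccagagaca
The windows differ at 4 of 300 bases, and the motif starts at base 147 in both. GAANNTTC is in 7.86% and TTCNNGAA in 8.52% of 32851 promoter windows of the same length, and 15.1% hold at least 1 of them. Of the 9 genes that fell, 3 had a match, the third being *Traf5* with TTCNNGAA. A match of letters is a description and not a binding site.

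The other 6 genes were detected more widely. *Stip1* (chr19:7020702-7039967) stood at 14.8 and 38.6 CPM in mutant and 131.2 and 137.1 CPM in control oligodendrocytes (log2 FC -1.92, SE 0.29, FDR 0.00527). *Ahsa1* (chr12:87266479-87273998) stood at 22.2 and 32.7 against 97.3 and 126.1 CPM (log2 FC -1.87, SE 0.29, FDR 0.00578). In both control mice oligodendrocytes had more *Stip1*, *Ahsa1* and *Traf5* than any other cell type with 20 nuclei. In the mutants 16 of 16 and 5 of 19 other types had more *Stip1* than oligodendrocytes, whose sums held 2 and 84 UMIs of it. *Ubb* (chr11:62551171-62553213) stood at 37.0 and 108.1 against 275.9 and 343.9 CPM (log2 FC -1.79, SE 0.31, FDR 0.0191). *P4ha1* (chr10:59323296-59373304) stood at 59.2 and 104.4 against 325.7 and 371.5 CPM (log2 FC -1.91, SE 0.28, FDR 0.00463). *Cd9* (chr6:125460266-125494791) stood at 110.9 and 123.2 against 323.4 and 401.8 CPM (log2 FC -1.61, SE 0.26, FDR 0.0109), and *Traf5* (chr1:191997205-192092559) at 29.6 and 55.2 against 144.7 and 165.1 CPM (log2 FC -1.62, SE 0.27, FDR 0.0155). In each of these genes the lower mutant was replicate 1, the library with 73 oligodendrocyte nuclei. There *Stip1*, *Ahsa1*, *Traf5*, *Ubb*, *P4ha1* and *Cd9* were measured on 2, 3, 4, 5, 8 and 15 UMIs.

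Several of the 9 genes were also lower in other cell types of the same mice. Of the 7 genes that could be tested in OPCs all 7 had a negative log2 FC and 3 were called there, *Wls*, *Ubb* and *Cd9*, and the same counts and the same 3 genes were found in astrocytes. Over all genes 0.121% were called lower in OPCs and 0.253% in astrocytes, and 50.8% and 50.1% had a negative log2 FC. In CA1 neurons 9 of 9 had a negative log2 FC against 48.2% of all genes, in CA3 neurons 8 of 8 against 49.0%, and in microglia 6 of 7 against 53.9%, with *Traf5* at 0.31. The cluster named inhibtory neurons 5 had a negative log2 FC for 8 of 8 against 48.8%, and 1 of them was called. In DGCs 6 of 8 did against 51.2%, with *Wls* at 0.49 and *Cd9* at 0.20, and *Ubb* was called (-1.70). *Ubb* was lower by a log2 FC of -1.74 in OPCs, -1.36 in astrocytes and -1.79 in oligodendrocytes, and the differences between these effects did not pass (FDR 1.0 against both). The effect was larger in oligodendrocytes for *P4ha1*, by a log2 difference of -1.21 (SE 0.28, FDR 0.0363) against OPCs and -1.19 (SE 0.28, FDR 0.0329) against astrocytes, and for *Stip1* by -1.45 (SE 0.36, FDR 0.0461) against astrocytes. For *Stip1* against OPCs (-0.78, SE 0.38) and for *Ahsa1* against astrocytes (-1.13, SE 0.37) the difference did not pass. In all 4 genes were past FDR 0.05 against OPCs among 10037 tested and 16 against astrocytes among 12698.

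**Figure D3:**
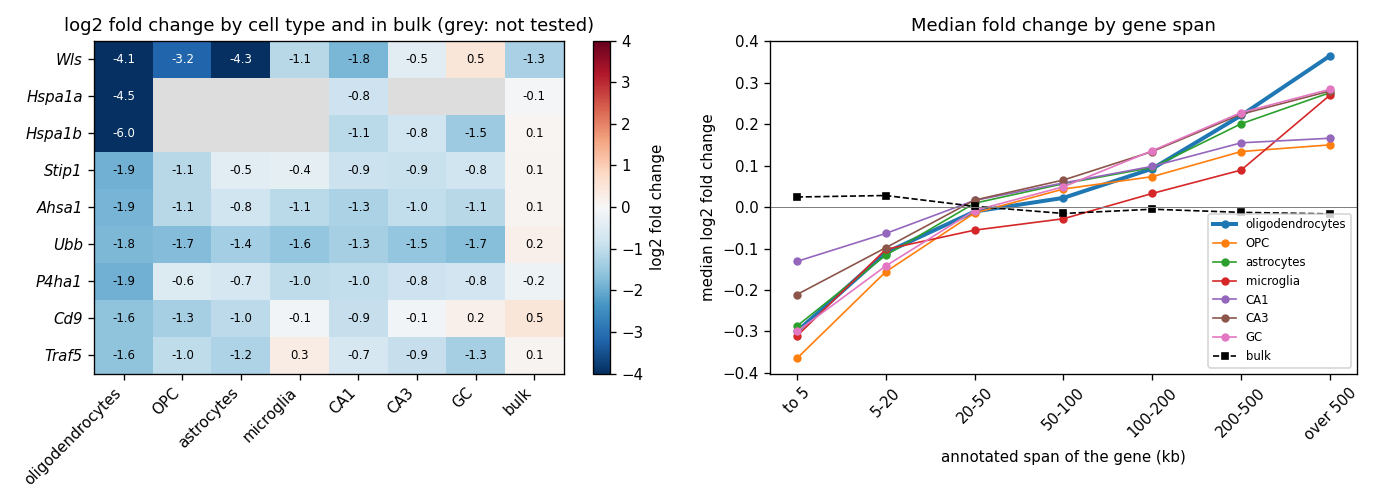
Left, log2 fold change of mutant over control for the 9 genes in 7 cell types (GC, dentate granule cells) and in bulk RNAseq, with grey where a gene had too few UMIs to be tested. Right, median log2 fold change of genes by their annotated span in kilobases for the same cell types and for bulk RNAseq. *Ubb* had a negative value in each type shown, bulk values lay near 0 for the chaperone genes, and the medians increased with gene span in every cell type but not in bulk.

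The 5 genes of lowest p among those higher in mutant oligodendrocytes did not pass and are named as such. *Tenm4*, a teneurin adhesion protein of the cell surface, stood at 96.1 and 77.7 CPM in the mutants and 24.9 and 29.9 CPM in the controls (log2 FC 1.51, SE 0.29, FDR 0.0519). Its paralog *Tenm3* stood at 59.2 and 43.2 against 18.1 and 11.8 CPM (log2 FC 1.79, SE 0.38, FDR 0.0941). *Mpped1*, a metallophosphoesterase, stood at 44.4 and 37.3 against 4.52 and 9.46 CPM (log2 FC 2.18, SE 0.43, FDR 0.0524). *Galnt5*, a glycosyltransferase of the Golgi, stood at 177.5 and 125.1 against 63.3 and 52.8 CPM (log2 FC 1.3, SE 0.27, FDR 0.0703), and the noncoding RNA *Gm28928* at 22.2 and 17.5 against 2.26 and 1.58 CPM on 3, 38, 1 and 4 UMIs (log2 FC 3.35, SE 0.66, FDR 0.0524). The groups did not overlap for any of the 5. All 5 passed with no filter on low counts (FDR 0.00235 for *Tenm4*, 0.0133 for *Tenm3*, 0.00275 for *Mpped1*, 0.00557 for *Galnt5* and 0.00486 for *Gm28928*). They passed too with the replicate number as a block. None of the 5 passed in DESeq2, with RLE scaling, with nuclei thinned to 1500 UMIs or without nuclei marked as doublets. At most 1 oligodendrocyte nucleus of a sample was so marked, so the last of these fits hardly differs from the main one. Leaving out 1 library leaves 1 mouse in a group, and only effect sizes are given for it. The log2 FC was then 1.42 to 1.76 for *Tenm4*, 1.38 to 2.13 for *Tenm3* and 1.99 to 3.09 for *Mpped1*. It was 1.14 to 1.67 for *Galnt5* and 3.30 to 3.43 for *Gm28928*. *Tenm4* was also higher in OPCs (log2 FC 1.99, FDR 0.0447), in astrocytes (1.34, FDR 0.0342) and, in other mice, in bulk RNAseq at 186.8 and 184.6 against 138.7 and 130.0 CPM (log2 FC 0.47, SE 0.05, FDR 0.0379). *Galnt5* was almost absent from bulk RNAseq, at 0.340 and 0.189 CPM in the mutants and 0.230 and 0.0596 CPM in the controls. Its annotated span (chr2:57997884-58045860) overlaps that of *Ermn* (chr2:58045113-58052864) on the other strand. The part of this overlap in its UMIs was not tested.

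Fold changes moved with the length of genes. In oligodendrocytes the median log2 FC was -0.30 over 805 genes whose annotated span is up to 5 kb, -0.11 over 2845 genes of 5 to 20 kb, 0.09 over 1058 genes of 100 to 200 kb and 0.365 over 221 genes of more than 500 kb, beside -0.01 over all genes. The medians also increased with span in OPCs (-0.365 at up to 5 kb and 0.15 at over 500 kb), in astrocytes (-0.29 and 0.28) and in CA1 neurons (-0.13 and 0.17), and they did not in bulk RNAseq (0.02 and -0.02). Of the 9 genes that fell, *Ubb* spans 2.04 kb, *Hspa1b* 2.8 kb, *Hspa1a* 2.97 kb and *Ahsa1* 7.52 kb, while of the genes named above *Tenm3* and *Tenm4* span 616 and 740 kb. *Wls* spans 99.0 kb, *Traf5* 95.4 kb and *P4ha1* 50.0 kb. These bins were chosen after the values were seen, and the part of span in the fold changes of single genes was not tested. Among 54 genes whose symbol begins with Hsp or Dnaj, a set also chosen after the values were seen that holds *Hspa1a* and *Hspa1b*, 38 had a negative log2 FC (median -0.19) against 51.2% of all genes, while in bulk RNAseq 26 of 70 did (median 0.03) against 48.1% of all genes.

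**Figure D4:**
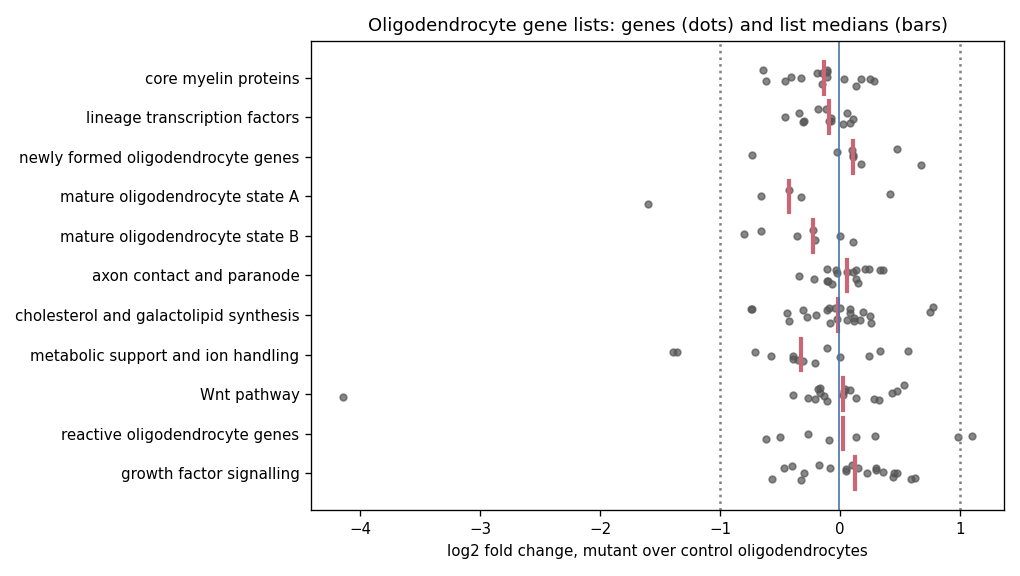
Log2 fold change of each tested gene (dots) of 11 oligodendrocyte lists in mutant over control oligodendrocytes, with the list medians as bars, the median of all genes as the vertical blue line and FC of 2 as dotted lines. *Wls* is the dot at -4.14, and the list medians lay between -0.42 and 0.12.

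Of 180 genes in the 11 lists 146 passed the filter on low counts, and *Wls* was the 1 that passed the test. Of the 146 tested, 22 had both mutants above and 33 both mutants below the controls (15.1% and 22.6%), near the 16.7% and 19.9% of all genes. No list had a median outside -0.42 to 0.12.

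The core myelin proteins were among the most abundant transcripts and none of the 16 passed the test (median log2 FC -0.13, range -0.64 to 0.28). The groups overlapped for *Mog* and *Mag*, whose levels are given above. *Mbp*, at 4747 and 4873 against 3788 and 4139 CPM, had the largest positive value of the list, with the groups apart, and did not pass (FDR 0.878). *Mal*, a membrane protein of compact myelin, and *Cldn11*, the claudin of the radial myelin component, were the lowest, and both were picked out after their values were seen. *Mal* stood at 1072 and 970.3 against 1436 and 1735 CPM (log2 FC -0.64, SE 0.21, FDR 0.462) and *Cldn11* at 820.8 and 768.4 against 1341 and 1094 CPM (log2 FC -0.62, SE 0.21, FDR 0.512).

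Lineage transcription factors were close in the groups (13 of 14 tested, median -0.09, range -0.46 to 0.11). *St18*, the most abundant, stood at 4363 and 4125 CPM in the mutants and 4505 and 3832 in the controls. *Zeb2*, which represses inhibitors of differentiation, stood at 2633 and 2977 against 2768 and 2455 CPM, *Zfp536* at 1250 and 1236 against 1389 and 1235 CPM, and *Sox10*, a master regulator of the lineage, at 465.9 and 442.4 against 380.0 and 565.7 CPM. *Myrf*, the membrane-bound factor that switches on myelin genes, stood at 266.2 and 201.4 against 264.6 and 217.1 CPM. The groups overlapped for all of these.

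Genes of newly formed oligodendrocytes were mostly low (8 of 12 tested, median 0.10, none passed). *Bcas1*, which marks cells that begin to myelinate, stood at 746.9 and 887.5 against 755.4 and 779.6 CPM, *Enpp6*, a choline phosphodiesterase of the same stage, at 140.5 and 164.2 against 113.1 and 169.8 CPM, and *Tns3* at 110.9 and 147.2 against 119.9 and 133.9 CPM. *Fyn*, the kinase that links axon contact to *Mbp* translation, stood at 110.9 and 103.0 against 110.8 and 104.0 CPM. After thinning to 1500 UMIs, *Gpr17*, *Neu4* and *Bmp4*, which mark the step between OPC and oligodendrocyte, were found in at most 0.629%, 0.45% and 0.0972% of nuclei in any sample. For *Neu4* and *Bmp4* the same share in neurons reached 0.166% and 0.142%.

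Genes of axon contact and the paranode, where myelin loops seal onto the axon, showed no call (17 of 17 tested, median 0.06). *Ank2* and *Ank3*, ankyrins that anchor membrane proteins, stood at 2300 and 2535 against 2569 and 2658 CPM and at 2041 and 1520 against 1846 and 1236 CPM, and *Cadm2* stood at 1634 and 1498 against 1913 and 1297 CPM. In the synthesis of cholesterol and galactolipids 24 of 25 genes were tested, the median was -0.02 and none passed. *Ugt8a*, which makes galactocerebroside, stood at 1013 and 987.3 against 1149 and 1014 CPM, *Fa2h*, which hydroxylates its fatty acid, at 1146 and 1184 against 1255 and 1229 CPM, and *Aspa*, which frees acetate from N-acetylaspartate, at 1383 and 1254 against 1239 and 1289 CPM.

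Metabolic support and ion handling had the second lowest list median (14 of 15 tested, -0.33) and no call. *Fth1*, the heavy chain of ferritin, stood at 354.9 and 856.7 against 999.7 and 1085 CPM (log2 FC -0.71, SE 0.28, FDR 0.644), and it passed the test without mutant replicate 2 (-1.54, FDR 0.00721), with -0.30 without mutant replicate 1. *Slc12a2*, a sodium-potassium-chloride cotransporter, stood at 739.5 and 707.7 against 839.1 and 724.1 CPM, and *Pde8a* at 769.1 and 853.5 against 649.1 and 650.4 CPM. *Ldhb*, a subunit of lactate dehydrogenase, and *Kcnk1*, a potassium leak channel, picked out after their values were seen, had log2 FC of -1.36 (SE 0.32, FDR 0.154) and -1.40 (SE 0.48, FDR 0.519), the latter at 7.40 to 24.0 CPM. *Ldhb* passed without mutant replicate 1 (-1.29, FDR 0.0245) and without control replicate 1 (-1.56, FDR 0.00327), with -2.29 without mutant replicate 2 and -0.90 without control replicate 2.

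The Wnt pathway apart from *Wls* showed no call, with 19 of 33 genes of the list tested and a median of 0.03, *Wls* included. *Daam2*, which modulates Wnt receptor complexes in this lineage, stood at 480.7 and 657.1 against 513.4 and 620.5 CPM. *Apc*, a scaffold of the complex that destroys beta-catenin, stood at 362.3 and 437.8 against 411.6 and 388.8 CPM, *Csnk1a1* and *Gsk3b*, kinases of that complex, at 199.7 and 177.0 against 233.0 and 186.7 CPM and at 184.9 and 178.0 against 226.2 and 175.7 CPM. *Axin2*, a feedback target of the pathway, was measured on 2, 23, 4 and 22 UMIs and stood at 14.8 and 10.6 against 9.05 and 8.67 CPM. *Tcf7l2*, the transcription factor, stood at 44.4 and 66.2 against 67.9 and 54.8 CPM. Of the ubiquitin ligases that remove Wnt receptors, *Rnf43* stood at 88.7 and 107.6 against 117.6 and 117.0 CPM (FDR 0.951) and *Znrf3* at 51.8 and 81.9 against 117.6 and 77.2 CPM, where the groups overlapped. These 4 genes were picked out after their values were seen. The SE of *Axin2* was 0.53 on the log2 scale, so a small difference was not detectable at this depth.

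Reactive oligodendrocyte genes, which rise in injury and demyelination, were scarce (8 of 17 tested, median 0.02, none passed). *Serpina3n*, a protease inhibitor, was at 0 and 32.7 CPM in the mutants and 6.79 and 33.1 CPM in the controls with the groups overlapping, and *C4b* of complement stood at 0 and 7.82 against 4.52 and 11.8 CPM. *Stat3* stood at 66.6 and 65.8 against 70.1 and 70.1 CPM. Growth factor signalling showed no call (20 of 22 tested, median 0.12). *Erbb4*, a neuregulin receptor, stood at 3394 and 2196 against 3051 and 2137 CPM, and *Fgfr2*, which carries the FGF signal for myelin thickness, at 2174 and 1794 against 1463 and 1426 CPM with the groups apart (log2 FC 0.45, SE 0.20, FDR 0.718).

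Transcripts of other cell types were present at low levels and moved between the libraries. The 10 neuron markers summed to 745.9 and 1352 CPM in mutant and 950.7 and 948.8 CPM in control oligodendrocytes before TMM scaling, against 23920 to 25000 CPM in CA1 neurons, and their median log2 FC was 0.47 over 10 of 10 tested. The 10 OPC markers summed to 473.3 and 683.8 against 513.5 and 535.6 CPM (14820 to 16870 in OPCs), with 4 of 10 at 0 in mutant replicate 1 and a median log2 FC of 0.56 over 6 tested. The 8 astrocyte markers summed to 344.2 and 358.7 against 302.7 and 307.2 CPM (20730 to 22860 in astrocytes). The 8 microglia markers summed to 28.7 and 97.6 against 87.5 and 74.9 CPM. The 8 choroid plexus markers, secretory epithelium beside the hippocampus, were all at 0 in mutant replicate 1, summed to 282.6 CPM in mutant replicate 2 and to 89.7 and 29.8 CPM in the controls. The 6 DGC markers summed to 186.5 and 226.6 against 257.9 and 211.9 CPM, and the endothelial and meningeal lists of 6 genes each summed to at most 17.5 and 24.6 CPM. Their part in the fold changes was not tested.

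The state genes fell into 2 sets, and in the 3 larger samples pairs across the sets were in the same nuclei less often than the frequencies of the 2 genes would give. Odds ratios of holding a UMI of both genes, taken within 5 strata of UMIs per nucleus, were computed for 45 pairs of 10 genes in each sample and are described here with no test, since nuclei of 1 mouse are not replicates. In the 3 samples with over 200 oligodendrocyte nuclei, 12 pairs were above 1 and 12 below 1 in all 3. *Ptgds*, the prostaglandin D2 synthase, went with *Il33*, an alarmin cytokine kept in the nucleus, at odds ratios of 1.74, 3.44 and 2.08 in control replicates 1 and 2 and mutant replicate 2. It went with *Opalin*, a myelin glycoprotein, at 1.49, 2.26 and 1.94, and *Il33* went with *Opalin* at 1.81, 1.51 and 1.54.

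The second set held *Enpp6*, *Apod* and *Hapln2*, and *Klk6* went with them less evenly. *Apod*, a lipid-binding apolipoprotein, went with *Enpp6* at 2.62, 3.57 and 2.28. *Hapln2*, a link protein of the nodal matrix, went with *Enpp6* at 3.77, 2.19 and 1.67 and with *Apod* at 2.49, 1.93 and 1.22. *Klk6*, a secreted serine protease, was in only 1 to 30 nuclei of a sample and went with *Apod* at 4.26, 5.55 and 4.66, with *Enpp6* at 1.37, 5.24 and 1.19 and with *Hapln2* at 0.7, 9.01 and 4.87, the first of these below 1. Across the sets the ratios were below 1, at 0.28, 0.13 and 0.26 for *Ptgds* with *Enpp6*, at 0.645, 0.33 and 0.498 for *Ptgds* with *Apod* (both in 556 of 1029 nuclei of control replicate 2, where 584 would be expected), at 0.412, 0.59 and 0.502 for *Opalin* with *Enpp6* and at 0.137, 0.136 and 0.451 for *Klk6* with *Opalin*. *Il33* with *Enpp6* gave 0.411, 0.462 and 0.555. In mutant replicate 1, with 73 nuclei, *Ptgds* with *Enpp6* (0.173), *Hapln2* with *Enpp6* (5.76) and *Hapln2* with *Opalin* (0.335) lay on the same side of 1 as in the other samples. So did *Ptgds* with *Il33* (1.58), *Opalin* (1.65) and *Hapln2* (0.949), and *Opalin* with *Enpp6* (0.481). The same held for *Apod* with *Enpp6* (2.67), *Hapln2* (2.24) and *Opalin* (0.896). *Il33* with *Enpp6* (1.64), *Apod* (1.12), *Hapln2* (1.21) and *Opalin* (0.961) and *Ptgds* with *Apod* (1.41) did not. *Car2* and *Grm3* were not placed in a set. *Car2* was above 1 with a member of each, at 1.36, 1.06 and 1.19 with *Ptgds* and 1.87, 1.19 and 1.16 with *Hapln2*, and *Grm3* with *Enpp6* gave 2.28, 1.6 and 1.01, whereas *Car2* with *Opalin*, *Car2* with *Grm3* and *Ptgds* with *Grm3* lay on both sides of 1. The list of mature state genes used above placed *Apod* with *Ptgds* and *Il33*, whereas *Apod* was with neither in the larger samples.

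**Figure D5:**
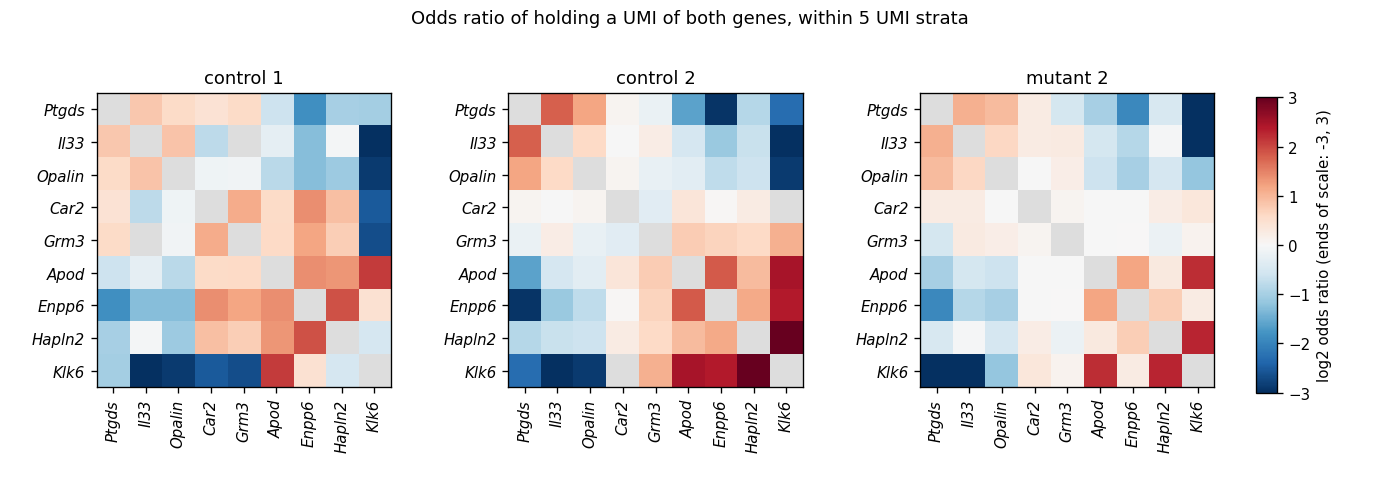
Log2 odds ratio of holding a UMI of both genes for pairs of 9 state genes, within 5 strata of UMIs per nucleus, in the 3 samples with over 200 oligodendrocyte nuclei. Red marks pairs found together more often and blue less often, grey marks the diagonal and pairs without a ratio, and the block of *Ptgds*, *Il33* and *Opalin* against *Enpp6*, *Hapln2* and *Klk6* is blue or near white in each sample.

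Shares of nuclei with a UMI of a state gene were compared between mice after thinning to 1500 UMIs. A UMI of *Ptgds* was in 64.4% and 54.0% of mutant and 69.4% and 73.9% of control oligodendrocytes, against 2.2% to 5.96% of neurons at the same depth. *Apod* was in 38.4% and 39.7% of mutant and 47.0% and 58.3% of control nuclei, and *Hapln2* in 27.4% and 39.3% against 43.1% and 44.4%. *Klk6* was in 1.37% and 0.989% against 1.72% and 1.75% of nuclei, and *Anxa5*, an annexin, in 0 of 73 nuclei and 0.36% against 0.862% and 1.26%. These 5 of 15 genes had both mutants below both controls, as did 21.2% of all genes in the same measure, with 16.0% the other way. The count was 7 of 15 without thinning and 3 of 15 at 1000 UMIs, and such a difference could not pass the exact permutation test, whose smallest two-sided p with 2 mice against 2 is 0.333. The 5 hold members of both sets, *Ptgds* of one and *Apod*, *Hapln2* and *Klk6* of the other.

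The remaining state genes overlapped between genotypes. *Il33* was in 17.8% and 22.6% of mutant and 15.1% and 23.6% of control nuclei, *Opalin* in 47.9% and 38.3% against 42.7% and 40.4%, *Enpp6* in 16.4% and 18.4% against 13.8% and 17.5%, and *Car2*, a carbonic anhydrase, in 67.1% and 71.4% against 71.1% and 78.6%. In the summed counts *Ptgds* stood at 1361 and 693.5 CPM in mutant and 1787 and 1687 CPM in control oligodendrocytes (log2 FC -0.80, SE 0.26, FDR 0.462), *Apod* at 377.1 and 394.6 against 508.9 and 709.5 CPM (log2 FC -0.66, SE 0.24, FDR 0.555) and *Klk6* at 7.40 and 5.06 against 11.3 and 17.7 CPM (log2 FC -1.60, SE 0.55, FDR 0.512). The groups were apart for all 3 genes and none passed. *Ptgds* had a log2 FC of -1.34 without mutant replicate 1 and -0.34 without mutant replicate 2. *Apod* had -0.90 without control replicate 1 and -0.35 without control replicate 2. The list of *Klk6* and *Hapln2* had 5 of 6 genes tested and a median log2 FC of -0.42, and that of *Ptgds* and *Il33* 7 of 10 and -0.22. *Grm3*, a metabotropic glutamate receptor, stood at 1161 and 1550 against 1671 and 1524 CPM, *Hapln2* at 281.0 and 366.5 against 422.9 and 413.6 CPM, and *Dpysl2* at 354.9 and 454.8 against 624.2 and 492.0 CPM.

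Bulk RNAseq of other mice gives the same genes in whole hippocampus. There the number of oligodendrocytes, the RNA per oligodendrocyte and the share of other cell types cannot be told apart. None of the 177 list genes tested (of 180) passed FC above 3 and FDR below 0.05 in edgeR, whereas 0.0193% and 0.198% of 20687 genes passed as higher and lower. At an unadjusted p under 0.05 and the same FC, 0.827% and 0.672% of all genes were higher and lower. List genes passed in some fits that left out 1 library, and such a fit leaves 1 mouse in a group. At FDR below 0.05 with no FC limit 2 list genes passed, both lower, against 0.198% of all genes higher and 1.01% lower. They were *Ptgds*, at 181.4 and 195.6 CPM in the mutants and 281.2 and 275.4 CPM in the controls (log2 FC -0.56, SE 0.06, FDR 0.0282), and *Apcdd1*, an inhibitor at the Wnt receptor, at 13.8 and 13.0 against 26.4 and 25.3 CPM (log2 FC -0.95, SE 0.09, FDR 0.0244). *Ptgds* is also made by meningeal and choroid plexus cells, and the 8 choroid plexus markers were all higher in the bulk mutants (median log2 FC 3.76), while the 6 meningeal markers had a median of -0.76, and their part in the *Ptgds* value was not tested.

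Core myelin genes lay on the positive side in bulk without passing the test. In snRNAseq DGCs were 1.70% and 4.43% of mutant and 36.1% and 27.9% of control nuclei. The paper proposes that the loss of DGCs slightly raises the share of the other cell types in bulk. The part of this in the values below was not tested. All 16 core myelin genes had a positive log2 FC in bulk (0.10 to 0.44, median 0.31, against 0.01 over all genes), 3 of the 16 had both mutants above both controls (25.8% of all genes did), and none passed the test. *Mbp* stood at 2240 and 1552 CPM in mutant and 1722 and 1313 CPM in control libraries, *Mog* at 55.5 and 40.9 against 44.1 and 33.2 CPM, and *Mag* at 159.1 and 121.4 against 122.3 and 95.4 CPM. In each of these genes replicate 1 of a genotype was above its replicate 2, and the *Xist* level given above divides the libraries in the same way. Within each replicate number the mutant library was above the control library for *Mbp*, *Mog* and *Mag*. Cholesterol and galactolipid genes had a median log2 FC of 0.17 in bulk, with 16 of 25 apart in the higher and 0 in the lower direction, and none passed. The chaperone genes that fell in oligodendrocyte nuclei had bulk log2 FC between -0.07 and 0.20 and none passed, with *Hspa1a* at 11.4 and 10.4 against 11.1 and 11.7 CPM, *Hspa1b* at 23.8 and 27.1 against 25.4 and 23.4 CPM and *Stip1* at 154.6 and 160.9 against 149.3 and 144.1 CPM. *Cd9* stood at 48.8 and 58.2 against 38.4 and 38.0 CPM (log2 FC 0.49, SE 0.09, FDR 0.0949), the opposite side from its fall in nuclei. *Wls* stood at 3.67 and 6.87 against 13.2 and 13.0 CPM (log2 FC -1.31, SE 0.30, FDR 0.117).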

How the data were processed

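Nuclei were prepared by the authors with 10x 3' v3 chemistry, and their deposited UMI counts per gene and nucleus came from Cell Ranger 3.1.0 on a pre-mRNA index of mm10, already limited to the nuclei they kept. The deposited expected counts of bulk RNAseq came from RSEM 1.3.0 with Bowtie2 2.2.9. Cell type names are the authors' own, and names such as inhibtory neurons 14 are spelled as there. The normalized bulk matrix was not used. UMI counts were summed per mouse and cell type, filtered with filterByExpr (minimum count 10), scaled by TMM and tested with edgeR 4.0.16 (quasi-likelihood, Benjamini-Hochberg FDR, R 4.3.3) over all genes, with DESeq2 1.42.0 as an alternative. Expected counts were rounded to whole numbers first. The 4 bulk libraries held 56002381 to 79576196 expected counts. Thresholds were FC above 2 (nuclei) or 3 (bulk) and FDR below 0.05, and differences between cell types were tested by an interaction of type and genotype in a fit with the mouse as a block.

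For shares of nuclei with a UMI, counts of every nucleus were first sampled down to 1500 UMIs. Shares carry exact Clopper-Pearson intervals and were compared by exact two-sided permutation tests. Scrublet, run through scanpy 1.11.5, marked 1 of 5304 nuclei in mutant replicate 1 and was taken not to have worked there. On simulated counts for 10086 genes, the oligodendrocyte fit recovered 172 of 200 genes changed 4-fold (86%), with 22 false calls beside them. Changes nearer to the FC limit of 2 were not simulated, so the recovery of smaller changes is not known. Named genes were the markers and *Wls*, the 4 most abundant members of each list, up to 10 called genes in each direction (or the 5 of lowest p), the 10 most enriched genes, the state genes and summed markers of other types. Members and lists were chosen with earlier results of these data known. Separate mice make the replicates, with 2 per genotype and assay. Some items that the rule on named genes would include are not reported here.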

Additional observations from a re-analysis of the deposited data

Results flagged for a closer look

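The effect of genotype differed between oligodendrocytes and a related cell type for the genes below, by the interaction term in edgeR with Benjamini-Hochberg adjustment and 2 mice per genotype. Only genes named by rule or picked out later are listed, and they are not the strongest against astrocytes. There the lowest FDR belonged to *Pde10a* (2.10, FDR 1.49e-07), *Pde3a* (1.86, FDR 0.00391) and *Gfra1* (1.91, FDR 0.00391). *Sgk1*, a kinase induced by glucocorticoids and salt, had a log2 FC that differed by -1.42 in oligodendrocytes against OPCs (FDR 0.00199). *Asic2*, an acid-sensing channel subunit, had a log2 FC higher by 1.56 against OPCs (FDR 0.0115) and by 1.55 against astrocytes (FDR 0.0101). *P4ha1* differed by -1.21 against OPCs (FDR 0.0363) and -1.19 against astrocytes (FDR 0.0329). *Bag3*, a co-chaperone of HSP70, differed by -2.02 against astrocytes (FDR 0.0444), *Hspa4l*, of the HSP110 family, by -1.28 (FDR 0.0444) and *Stip1* by -1.45 (FDR 0.0461). The noncoding RNA *Gm28928* differed by 2.98 against astrocytes (FDR 0.0418). *Sgk1*, *Asic2*, *Bag3* and *Hspa4l* were picked out after their values were seen. None of them passed in oligodendrocytes alone (edgeR FDR 0.0703, 0.0964, 0.0823 and 0.133). Mutant replicate 1 held 2, 3, 0 and 2 UMIs of them.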

How the results depend on the processing

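Gene counts moved with the processing, and the share changed direction. Without a filter on low counts 13 genes were higher and 34 lower in mutant oligodendrocytes, and leaving out 1 library gave 4 to 29 higher and 15 to 37 lower. With the replicate block 21 were higher and 66 lower, and the 5 genes named as highest passed too (FDR 0.000411 to 0.00563). No source states that the replicate numbers pair across genotypes, though the sample titles number the libraries of a replicate consecutively. With 2 pairs the correlation of deviations was 0.138 in oligodendrocytes and 0.0208 in bulk, so the block stands only as an alternative. The 9 genes were lower in each of 10 alternatives, and 9 stayed called with RLE scaling, no filter, the block or no doublets, 7 after thinning and 5 in DESeq2. Scrublet marked 0, 1, 0 and 1 oligodendrocyte nuclei in mutant replicates 1 and 2 and control replicates 1 and 2. The fit without doublets is therefore nearly the main fit and says little of robustness. The log2 difference in share ranged from -2.70 to 0.74 when 1 library was left out, was 0.25 without mutant replicate 1 and 0.74 without control replicate 2, and was -0.90 with the block. In bulk the list genes called were 2 higher with no filter and 2 lower with no FC threshold. These calls moved too when 1 library was left out, which leaves 1 mouse in a group. Thinned to 1000 UMIs, 1 state gene was in a higher and 3 in a lower share of nuclei in both mutants. The median log2 FC of core myelin genes ranged from -0.18 to -0.04 in nuclei and from 0.06 to 0.47 in bulk when 1 library was left out. The causes were not tested. With 73 nuclei in mutant replicate 1, genes of few UMIs are limited by depth.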

Other observations

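Within control oligodendrocytes, nuclei with a UMI of *Hspa1a* or *Hspa1b* were compared with the rest, within strata of UMIs per nucleus and with no test, since nuclei of 1 mouse are not replicates. The odds ratio of also holding *Ubb* was 2.21 and 1.62 in control replicates 1 and 2, that of *P4ha1* 1.98 and 1.66, and that of *Hsph1*, an HSP110 chaperone, 2.56 and 1.26. *Stip1* lay on both sides of 1, at 0.362 and 1.06, and *Grm3* below 1, at 0.293 and 0.605.

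Nuclei with a UMI of *Wls* in the same mice more often held *Hapln2*, with odds ratios of 3.08 and 1.20, and *Apod*, with 2.28 and 1.41, and less often *Ptgds*, with 0.275 and 0.823. These pairs were picked out of 38 per mouse after their values were seen.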
